A study of Mus musculus with 15 samples.

Results

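The comparison described here is that of parental melanoma grafts treated with anti-PD-1 against parental grafts treated with an isotype control antibody, over all genes. Its 6 libraries, 3 per group, were taken by their labels from the 15 bulk tumor libraries of the series. Each graft was grown from D4M.3A.3 cells, the parental mouse melanoma line, of which 1000000 were injected into each flank of female C57BL/6 mice aged 8 weeks. Left-flank grafts received isotype control antibody or anti-PD-1 on days 8, 10 and 12 after injection. Day 13 was the day of collection. The isotype group thus had the same grafts, strain, schedule and day, with an antibody that does not recognise PD-1. The labels name neither the flank sequenced nor separate mice for the libraries of a group. The limma p-values thus measure only a spread between libraries, one estimated within all 5 groups of the series together. The other groups of the series were parental grafts under triple therapy and grafts of UV2 (D3UV2), a line to which UVB light added putative neoantigens, under isotype or anti-PD-1, again 3 libraries each.

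PD-1, encoded by Pdcd1, is an inhibitory receptor on activated T cells. When its ligands PD-L1 (Cd274) and PD-L2 (Pdcd1lg2) bind it, signalling from the T cell receptor is dampened, and blocking antibodies release this brake. Released T cells secrete interferon gamma, which acts through its receptor and the kinases Jak1 and Jak2 on tumor, stromal and myeloid cells. Its targets include guanylate-binding proteins, immunity-related GTPases, the chemokines Cxcl9 and Cxcl10, antigen presentation genes and Cd274 itself.

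Promoters of 4 interferon gamma response genes that recur in the results are shown first, because the binding motifs of the interferon pathway can be read in them. Each is the 250 bases before the annotated start in RefSeq (GRCm38.p6), 5′ to 3′ on the gene's strand. Capitals mark matches to TTCNNNGAA, the gamma-activated site, or to GAAANNGAA, the core of the interferon-stimulated response element bound by Irf1 and related factors. Both strands were searched.
Irf1: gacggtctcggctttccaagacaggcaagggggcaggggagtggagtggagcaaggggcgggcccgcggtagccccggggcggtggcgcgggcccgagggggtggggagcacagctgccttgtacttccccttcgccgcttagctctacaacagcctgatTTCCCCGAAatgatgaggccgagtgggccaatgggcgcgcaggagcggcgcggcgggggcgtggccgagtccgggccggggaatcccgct
Igtp: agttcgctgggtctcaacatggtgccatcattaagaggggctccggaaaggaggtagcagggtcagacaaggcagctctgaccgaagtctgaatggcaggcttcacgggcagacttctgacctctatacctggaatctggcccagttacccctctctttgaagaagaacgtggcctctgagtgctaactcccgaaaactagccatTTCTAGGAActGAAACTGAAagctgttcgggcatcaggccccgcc
Cd274: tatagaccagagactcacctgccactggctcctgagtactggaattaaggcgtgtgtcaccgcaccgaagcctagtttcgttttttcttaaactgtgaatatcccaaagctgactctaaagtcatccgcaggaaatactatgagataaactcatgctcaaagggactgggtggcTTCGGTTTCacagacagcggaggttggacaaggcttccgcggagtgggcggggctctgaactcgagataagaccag
Cxcl9: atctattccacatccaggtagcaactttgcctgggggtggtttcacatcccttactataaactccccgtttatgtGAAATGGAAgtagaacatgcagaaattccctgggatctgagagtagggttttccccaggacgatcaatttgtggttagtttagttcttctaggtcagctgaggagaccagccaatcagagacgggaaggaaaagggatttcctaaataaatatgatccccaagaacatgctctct
The Irf1 window (chr11:53769764-53770013, plus strand, the first of 2 entries) holds 1 TTCNNNGAA match that begins at position -90 from the start. The Igtp window (chr11:58199306-58199555, plus strand) holds 1 TTCNNNGAA match at -45 and 1 GAAANNGAA match at -34, which do not overlap. A single GAAANNGAA match lies at -76 in the Cd274 window (chr19:29367188-29367437, plus strand) and another at -175 in the Cxcl9 window (chr5:92328080-92328329, minus strand). The window of Cxcl10 (chr5:92348890-92349139, minus strand), whose sequence is not printed, also holds 1 GAAANNGAA match, at -213. The log2 fold change of Cxcl10 was 0.21 ± 0.57 (SE), less than its standard error. Over all 32851 promoters in the table, 7.02% of windows hold TTCNNNGAA and 7.13% hold GAAANNGAA. Only 21 of the 32 interferon gamma response genes tested had an entry (65.6%), so no share over the list is given. A match describes the letters in the window, not a bound site.

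No gene passed the test between the groups. With limma on log2(TPM + 1), where TPM (transcripts per 1000000) is a gene's share of all transcripts scaled to its length, 0 of 13592 genes tested had an adjusted p under 0.05 (0%). The lowest adjusted value was 1. A fit with limma array weights called 412 genes, the only alternative to call any. The unadjusted p lay under 0.05 for 53 genes with higher values under anti-PD-1 (0.39%) and for 30 with lower values (0.221%). These 83 genes are fewer than the 680 that 5% of the genes would make. The fit took its spread from all 5 groups, and a fit of only the groups compared held 142 such genes. The median 95% confidence interval, unadjusted for the number of genes, reached 0.57 log2 units to each side of the estimate. Smaller differences could thus not be told from 0 for a typical gene. Larger ones also failed the adjusted test, such as that of Atp6v0c, 1.25 ± 0.31 (SE). The groups did not overlap, with all 3 anti-PD-1 libraries above or below all 3 isotype libraries, for 367 genes higher (2.7%) and 213 lower (1.57%). An exact permutation test of a single gene cannot go below p = 0.1 with these groups.

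**Figure D1:**
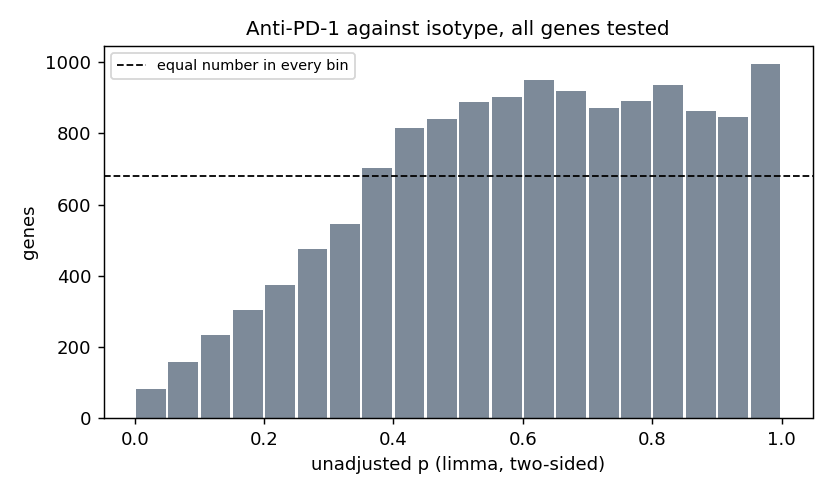
Number of genes (vertical axis) by unadjusted two-sided limma p (horizontal axis) for anti-PD-1 against isotype in parental tumors. The dashed line marks an equal number in every bin, 680 genes, and the lowest bin holds 83.

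The libraries differed within groups in ways that their labels do not name. Spp1 was the most abundant transcript in all 6 libraries, between 12376 and 12994 genes reached 1 TPM, and correlations of log2(TPM + 1) between libraries lay between 0.942 and 0.990. The lowest was that of isotype 2 with isotype 3, within 1 group. Adipocyte transcripts were present in isotype 3 and anti-PD-1 1, and skeletal muscle transcripts were low in isotype 1 and isotype 2, as detailed below. Of the melanocyte lineage, 8 of 18 listed genes passed the filter. Tyrp1 was at 0 in every library, Mitf, the master regulator of melanocytes, lay between 5.72 and 11.8 TPM, Tyr between 1.49 and 3.01 TPM, and Sox10, Dct, Pmel and Mlana did not exceed 0.68 TPM. Among these markers only Mitf and Tyr were thus above 1 TPM, and the other 5 pigment cell genes were at or near 0. The melanoma label is that of the injected line and was not tested with these markers. The fold change was positive for 65.4% of genes, with a median of 0.07. The split depended on scaling: after median-of-ratios scaling 50.4% were positive, after quantile normalization 48.9%, and the median of all genes became 0.0015 and -0.0032.

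Interferon gamma response genes were the immune list with the highest median. All 32 tested members had a positive fold change, under each scaling tried, against 65.4% of all genes, and their median was 0.68 (range 0.10 to 1.48) against 0.07 for all genes. None passed the adjusted test. An unadjusted limma p under 0.05 was reached by 5 of 32, where 0.39% of all genes reached it with higher values. The groups did not overlap for 9 of 32, all higher (28.1%, against 2.7% of all genes). The mean level of the list, in log2(TPM + 1), was 4.86, 4.96 and 4.95 in the isotype libraries and 5.20, 5.85 and 5.89 in the anti-PD-1 libraries. The isotype libraries were close to each other, whereas anti-PD-1 1 lay well below the other anti-PD-1 libraries. In anti-PD-1 2, 28 of 32 members exceeded all 3 isotype libraries (87.5%, against 13.3% of all genes), and in anti-PD-1 3 it was 25 of 32 (78.1%, against 22.1%). In anti-PD-1 1 it was 13 of 32 (40.6%), below the 42.9% of all genes.

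**Figure D2:**
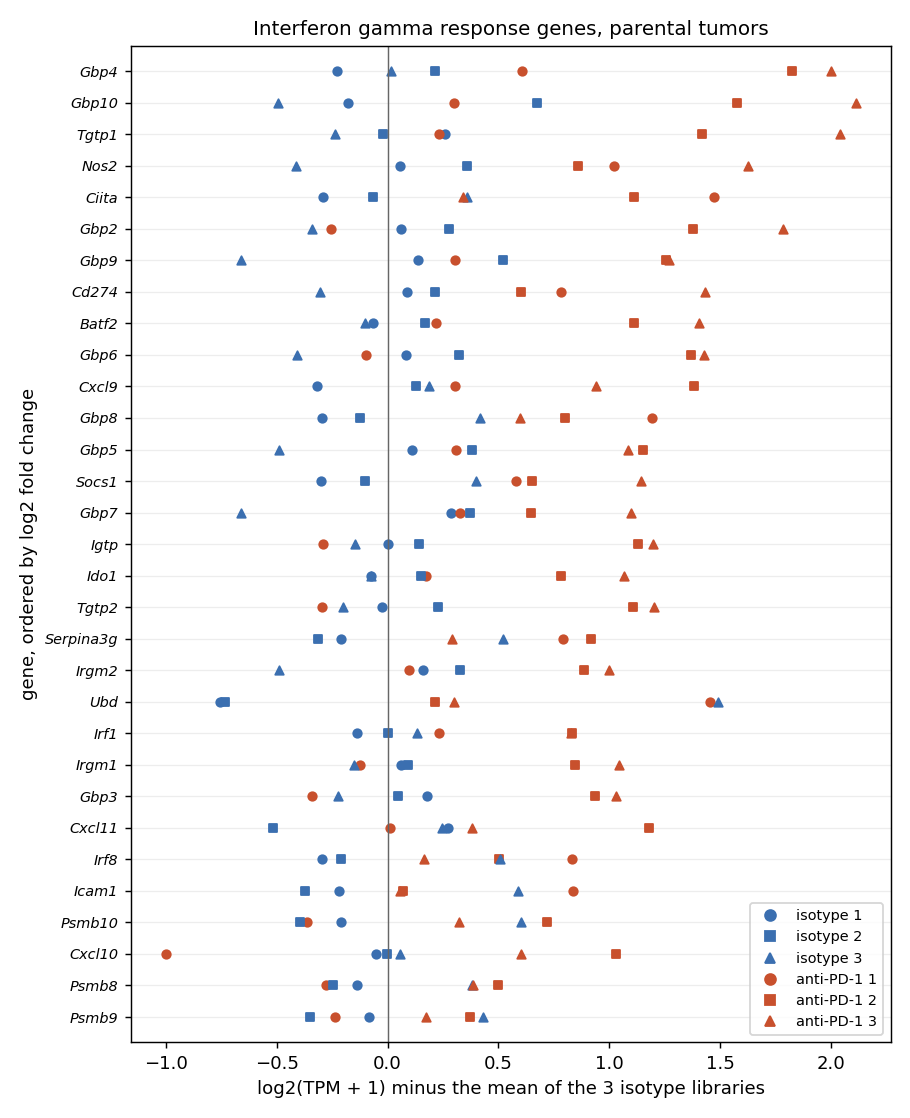
Log2(TPM + 1) minus the mean of the isotype libraries (horizontal axis) for 31 of the interferon gamma response genes tested (vertical axis), with blue isotype and orange anti-PD-1 libraries, one point each. Among the genes plotted, anti-PD-1 2 and 3 exceed all isotype libraries for 27 and 24, and anti-PD-1 1 (circles) for 13.

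The ligand and early regulators of the pathway are given first. Ifng, the ligand, measured 2.32, 1.54 and 5.41 TPM under isotype and 3.42, 5.12 and 5.12 TPM under anti-PD-1. The groups overlapped, with isotype 3 the highest of all, and the log2 fold change was 0.54 ± 0.51 (SE). Irf1, an early target that activates further interferon genes, measured 90.8, 100.1 and 109.5 TPM under isotype and 118, 179 and 178 TPM under anti-PD-1. Every anti-PD-1 library exceeded every isotype library for Irf1, with a log2 fold change of 0.63 ± 0.27 (SE) and an unadjusted limma p of 0.0379. Socs1, a feedback inhibitor of Jak kinases, measured 9.17, 10.7 and 15.5 TPM under isotype and 17.7, 18.7 and 26.7 TPM under anti-PD-1. Socs1 did not overlap either (0.79 ± 0.36 (SE) on the log2 scale, unadjusted limma p 0.0476).

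Guanylate-binding proteins, GTPases that attack the vacuoles of intracellular pathogens, held the highest fold change of the list. Gbp4 (chr5:105115767-105139586, minus strand) measured 15.9, 21.9 and 18.9 TPM under isotype and 29.1, 69.0 and 77.9 TPM under anti-PD-1. All treated libraries lay above the isotype libraries, with anti-PD-1 2 and 3 far above anti-PD-1 1, and the log2 fold change was 1.48 ± 0.57 (SE) with an unadjusted limma p of 0.0217 and an adjusted p of 1. Gbp2, the most abundant of those named, measured 274, 318 and 207 TPM under isotype and 219.6, 684 and 906 TPM under anti-PD-1. Here anti-PD-1 1 lay inside the isotype range. Igtp, an immunity-related GTPase, measured 135, 149 and 122 TPM under isotype and 110.3, 297 and 311 TPM under anti-PD-1, and anti-PD-1 1 was its lowest library. Tgtp1, a T cell-specific GTPase, measured 29.4, 24.1 and 20.6 TPM under isotype and 28.9, 67.0 and 104 TPM under anti-PD-1. Tgtp1 has a near-identical copy, Tgtp2, so the division of reads between them is uncertain, and their sum was 149, 166 and 126 TPM under isotype and 128, 330 and 385 TPM under anti-PD-1. On the sum the groups overlapped (exact two-sided permutation p = 0.3), again through anti-PD-1 1. Gbp10 was low, at 0.49, 1.69 and 0.20 TPM under isotype and 1.08, 4.04 and 6.30 TPM under anti-PD-1, and Gbp8 measured 6.63, 7.58 and 11.5 TPM under isotype and 20.4, 15.3 and 13.2 TPM under anti-PD-1. Gbp8 showed another order: anti-PD-1 1 was its highest library, and the groups did not overlap.

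Secreted and effector targets were mixed in their order. Cxcl9, a chemokine that attracts T cells through Cxcr3, measured 56.6, 77.7 and 81.0 TPM under isotype and 87.8, 187 and 137 TPM under anti-PD-1. The groups did not overlap, though anti-PD-1 1 stood only slightly above isotype 3, and the log2 fold change was 0.88 ± 0.57 (SE). Cxcl10, which binds the same receptor, measured 152, 157 and 163 TPM under isotype and 78.0, 322 and 239 TPM under anti-PD-1. For Cxcl10, anti-PD-1 1 was the lowest library of all and the other treated libraries the highest, so the fold change of 0.21 ± 0.57 (SE) was less than its standard error. Nos2, the inducible nitric oxide synthase of activated macrophages (chr11:78920787-78960254, plus strand), measured 5.42, 6.92 and 3.64 TPM under isotype and 11.6, 10.2 and 18.1 TPM under anti-PD-1. Its groups did not overlap (1.17 ± 0.44 (SE) on the log2 scale, unadjusted limma p 0.0196). Ido1, a tryptophan-degrading enzyme, was listed at 0 in isotype 1 and 3, at 0.17 TPM in isotype 2 and at 0.19, 0.81 and 1.21 TPM under anti-PD-1. All Ido1 values were low, and anti-PD-1 1 barely exceeded isotype 2. Batf2, a transcription factor induced in macrophages, measured 22.3, 26.4 and 21.7 TPM under isotype and 27.4, 51.7 and 63.5 TPM under anti-PD-1, and these groups did not overlap.

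The receptor and its ligands differed in pattern. Pdcd1, which encodes the target of the antibody, measured 6.84, 4.05 and 12.6 TPM under isotype and 7.02, 15.6 and 4.58 TPM under anti-PD-1. The groups overlapped throughout, and the fold change was 0.15 ± 0.65 (SE). Cd274, which encodes PD-L1, measured 22.1, 24.1 and 16.6 TPM under isotype and 36.3, 31.9 and 57.5 TPM under anti-PD-1. Cd274 was the only member of the 14 tested inhibitory receptor and ligand genes whose groups did not overlap, at 0.94 ± 0.42 (SE) on the log2 scale (unadjusted limma p 0.0423, adjusted p 1). It made 7.14% of the list, where 2.7% of all genes were higher without overlap. Pdcd1lg2, which encodes PD-L2, measured 1.18, 1.35 and 3.88 TPM under isotype and 5.24, 2.35 and 4.56 TPM under anti-PD-1, and isotype 3 lay among the treated libraries.

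T cell genes did not follow the same order of libraries. The 18 T cell receptor and coreceptor genes had a median fold change of 0.18, 15 were positive and 0 of 18 were free of overlap. The median was -0.03 without isotype 2 and 0.67 without isotype 3. Their mean level was 2.53, 2.36 and 3.66 under isotype and 3.41, 3.44 and 2.34 under anti-PD-1. The treated library with the highest interferon gamma response level, anti-PD-1 3, thus held the lowest T cell level, and isotype 3 held the highest T cell level with an interferon gamma response level like that of the other isotype libraries. Cd3e, a chain of the receptor complex, measured 5.46, 5.51 and 14.9 TPM under isotype and 12.4, 14.4 and 3.77 TPM under anti-PD-1. Cd8a, the coreceptor of cytotoxic T cells, measured 6.89, 4.69 and 15.9 TPM under isotype and 17.1, 13.2 and 4.70 TPM under anti-PD-1, and Cd4, the helper coreceptor, 2.68, 2.49 and 7.18 TPM under isotype and 11.2, 8.52 and 3.04 TPM under anti-PD-1. In all of these, isotype 3 sat with anti-PD-1 1 and 2, and anti-PD-1 3 sat with isotype 1 and 2. Foxp3, the regulatory T cell factor, measured 0.70, 1.07 and 1.44 TPM under isotype and 2.08, 1.88 and 0.88 TPM under anti-PD-1. In bulk tumors, fewer cells of a type and less RNA per cell cannot be told apart.

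**Figure D3:**
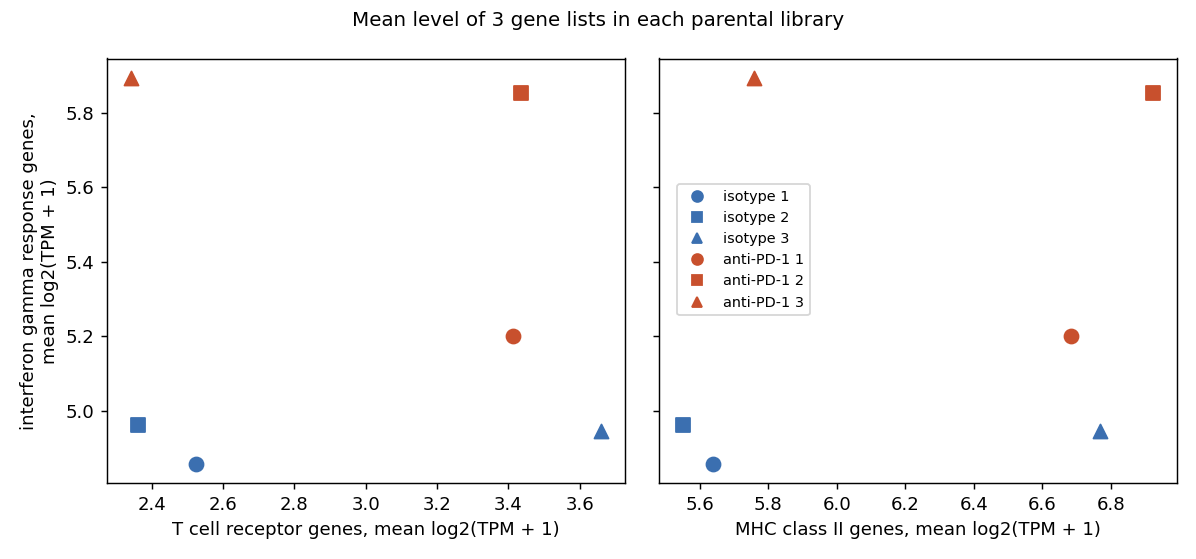
Mean log2(TPM + 1) of the interferon gamma response genes (vertical axis) against that of T cell receptor genes (left) and MHC class II genes (right) in each of the 6 libraries, isotype in blue and anti-PD-1 in orange. Anti-PD-1 3 (orange triangle) combines the highest interferon gamma response level, 5.89, with the lowest T cell level, 2.34.

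Cytotoxic effector genes, which encode the killing machinery of T cells and NK cells, had a median fold change of 0.31 over 14 tested, with 10 positive. Without isotype 2 the median was -0.03 and without isotype 3 it was 0.62. Perforin (Prf1), which opens pores in target cells, measured 9.61, 5.44 and 9.97 TPM under isotype and 23.4, 11.2 and 12.4 TPM under anti-PD-1. Granzyme A (Gzma), a protease delivered through these pores, measured 14.7, 8.06 and 17.5 TPM under isotype and 22.01, 19.8 and 21.3 TPM under anti-PD-1. Prf1 and Gzma were the 2 members without overlap, at 0.80 ± 0.54 (SE) and 0.67 ± 0.55 (SE) on the log2 scale, less than 2 standard errors each. They made 14.3% of the list, where 2.7% of all genes were higher without overlap. Granzyme B (Gzmb) measured 27.2, 14.3 and 38.01 TPM under isotype and 40.1, 28.9 and 37.4 TPM under anti-PD-1, with overlap through isotype 3. Il7r, the interleukin 7 receptor of naive and memory T cells, measured 7.67, 6.00 and 8.54 TPM under isotype and 11.7, 12.4 and 11.6 TPM under anti-PD-1 and did not overlap. It was the 1 such member of 7 naive and memory T cell genes tested (14.3%, against 2.7% of all genes). The median of those 7 genes was 0.15 (-0.04 without anti-PD-1 1 and 0.50 without isotype 3). NK cell genes had a median of 0.0001 over 15 tested (-0.24 without isotype 2 and 0.27 without anti-PD-1 3), and none was free of overlap.

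Antigen presentation separated by class. Of 20 MHC class I genes tested, 18 were positive (14 with median-of-ratios scaling, 17 with quantile normalization), and the median was 0.30. Among these 20, 3 were higher without overlap, where 2.7% of all genes were higher without overlap. Nlrc5, the transactivator of class I genes, measured 21.9, 24.0 and 12.2 TPM under isotype and 29.4, 25.02 and 36.1 TPM under anti-PD-1. Tapbpl, a peptide editor, measured 32.9, 29.2 and 32.7 TPM under isotype and 37.2, 52.5 and 56.2 TPM under anti-PD-1, and H2-T22, a nonclassical class I gene, 69.2, 65.9 and 78.8 TPM under isotype and 81.1, 114 and 101 TPM under anti-PD-1. These were the 3 genes without overlap, which became 10 of 20 without isotype 3 (8.17% of all genes) and 11 of 20 without anti-PD-1 1 (4.84% of all genes). Abundant members had fold changes below their standard errors. B2m, the class I light chain, measured 8189.6, 8005 and 8348 TPM under isotype and 7186, 8935 and 9013 TPM under anti-PD-1, with a fold change of 0.03 ± 0.27 (SE) that took the opposite sign with median-of-ratios scaling, and H2-K1 measured 1786, 1692 and 2379 TPM under isotype and 1989, 2529 and 2250.3 TPM under anti-PD-1. Pdia3, a chaperone of class I loading, had a negative fold change of -0.15 ± 0.12 (SE).

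MHC class II genes, which professional antigen-presenting cells use to show peptides to helper T cells, had a median of 0.50 with 10 of 11 positive and 0 of 11 without overlap. The median was 0.25 without anti-PD-1 2 and 0.95 without isotype 3. H2-Ab1 measured 314, 285 and 1120.5 TPM under isotype and 932, 1152 and 379 TPM under anti-PD-1. Isotype 3 and anti-PD-1 1 and 2 formed the high set, the same order as for T cell genes and unlike the interferon gamma response. Ciita, the class II transactivator, measured 2.98, 3.65 and 5.25 TPM under isotype and 12.5, 9.53 and 5.16 TPM under anti-PD-1, and anti-PD-1 3 lay just below isotype 3. Irf8, a factor of dendritic cells and macrophages that also responds to interferon gamma, measured 19.0, 20.2 and 33.9 TPM under isotype and 42.8, 33.8 and 26.5 TPM under anti-PD-1.

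The type I interferon list, which is driven mainly by interferons alpha and beta, had a lower median than the interferon gamma list. Of 30 genes tested, 16 were positive, the median was 0.02 (-0.06 after median-of-ratios scaling, -0.09 after quantile normalization) and none was free of overlap. Leaving out single libraries, the median lay between -0.21 without anti-PD-1 2 and 0.27 without anti-PD-1 1. Isg15, a ubiquitin-like modifier, measured 198, 152 and 208 TPM under isotype and 72.5, 204 and 165 TPM under anti-PD-1. By library, 0 of 30 members exceeded all isotype libraries in anti-PD-1 1, 22 of 30 in anti-PD-1 2 (73.3%, against 13.3% of all genes) and 13 of 30 in anti-PD-1 3 (43.3%, against 22.1%), so here too anti-PD-1 1 lay below the other treated libraries. For Isg15, anti-PD-1 1 was the lowest library, and the others overlapped. Isg20, an exonuclease, measured 19.2, 21.5 and 21.2 TPM under isotype and 12.9, 20.2 and 13.3 TPM under anti-PD-1, and Ifi27l2a, a small mitochondrial protein gene, 146, 112 and 245 TPM under isotype and 121, 152 and 58.9 TPM under anti-PD-1. Both had negative fold changes, -0.42 ± 0.23 (SE) and -0.62 ± 0.46 (SE), and that of Ifi27l2a was -0.31 without isotype 3 and -0.22 without anti-PD-1 3. Stat2, a subunit of the type I interferon transcription complex, measured 36.7, 39.5 and 22.2 TPM under isotype and 35.0, 40.2 and 48.1 TPM under anti-PD-1.

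Immediate early genes, transcription factors induced within minutes of a stimulus, had a median of 0.34. Of 23 tested, 22 were positive (21 with median-of-ratios scaling, 20 with quantile normalization). Higher without overlap were 4 of them (17.4%, against 2.7% of all genes). Junb, a subunit of AP-1, measured 32.0, 48.1 and 54.5 TPM under isotype and 60.1, 85.3 and 86.8 TPM under anti-PD-1. Egr1, a growth factor-induced zinc finger factor, measured 40.0, 42.8 and 45.1 TPM under isotype and 60.2, 56.6 and 152 TPM under anti-PD-1. Junb and Egr1 did not overlap, at 0.79 ± 0.28 (SE) and 0.90 ± 0.38 (SE) on the log2 scale, with unadjusted limma p-values of 0.0144 and 0.0355, and anti-PD-1 3 was far above the other treated libraries for Egr1. Jun measured 75.2, 81.4 and 73.3 TPM under isotype and 97.5, 95.2 and 108 TPM under anti-PD-1. Myc, which drives growth, measured 36.4, 41.3 and 42.7 TPM under isotype and 47.4, 45.6 and 49.6 TPM under anti-PD-1. Jun and Myc did not overlap either, and Fos, the partner of Jun, overlapped at 0.19 ± 0.30 (SE). Leaving out isotype 3 gave 10 of 23 members without overlap (8.17% of all genes were then higher without overlap), anti-PD-1 1 gave 9 (4.84%), anti-PD-1 2 gave 8 (14.7%) and isotype 2 gave 7 (9.09%).

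NF-kB feedback targets, inhibitors and subunits that NF-kB itself induces, were positive for 16 of 16 (15 with either other scaling). Their median was 0.26, and 3 were higher without overlap (18.8%, against 2.7% of all genes). Nfkb2, a subunit of the noncanonical pathway, measured 71.1, 79.8 and 70.3 TPM under isotype and 95.6, 85.0 and 86.8 TPM under anti-PD-1. Nfkbie, an inhibitor of NF-kB, measured 16.6, 19.96 and 27.1 TPM under isotype and 31.2, 28.6 and 24.0 TPM under anti-PD-1, with anti-PD-1 3 below isotype 3. In anti-PD-1 1, 15 of 16 members exceeded all isotype libraries (93.8%), which was the library where 42.9% of all genes did so. The members without overlap were 7 of 16 without isotype 3, anti-PD-1 2 or anti-PD-1 3, settings in which 8.17%, 14.7% and 5.74% of all genes were higher without overlap, and without anti-PD-1 1 the median was 0.15. Among 22 chemokines and inflammatory cytokines, 19 were positive with a median of 0.28 (0.42 without isotype 3). Tnf, the inflammatory cytokine tumor necrosis factor, measured 4.11, 4.54 and 5.22 TPM under isotype and 6.46, 6.75 and 5.93 TPM under anti-PD-1 and did not overlap. Cxcl1, a neutrophil chemokine, was low at 0.50, 2.56 and 0.96 TPM under isotype and 3.48, 2.05 and 2.80 TPM under anti-PD-1 and overlapped.

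**Figure D4:**
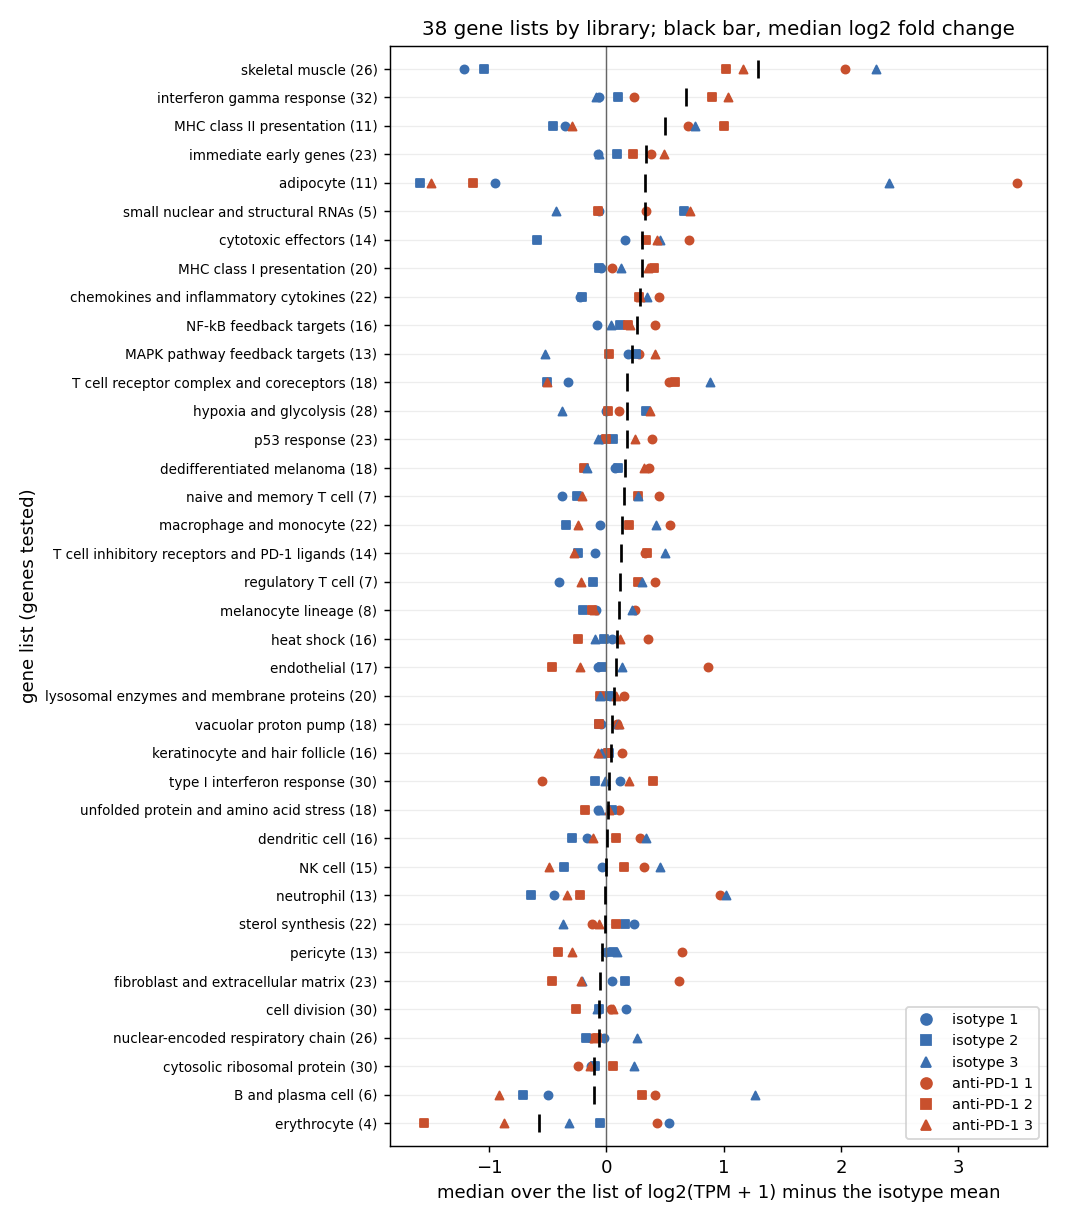
Median over each gene list (vertical axis, number of genes tested in brackets) of log2(TPM + 1) minus the isotype mean (horizontal axis) in each of the 6 libraries, with a black bar at the list's median log2 fold change. Skeletal muscle, at 1.30, and the interferon gamma response, at 0.68, have the highest medians, and the muscle and adipocyte lists spread most between libraries of a group.

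Skeletal muscle genes had the highest median of the 38 lists, 1.30 over 26 tested. Of these, 25 were positive and 4 were higher without overlap (15.4%, against 2.7% of all genes). The summed level of all 28 listed muscle genes was 69.0 and 65.3 TPM in isotype 1 and 2, 1148 TPM in isotype 3, and 780.1, 433 and 451 TPM in the anti-PD-1 libraries. The fold change therefore sets 2 muscle-poor isotype libraries and a muscle-rich one against 3 muscle-rich treated libraries. Acta1, the actin of muscle fibres, measured 5.91, 3.91 and 229 TPM under isotype and 177, 121 and 116 TPM under anti-PD-1, and its fold change of 2.78 ± 2.26 (SE) had a standard error nearly as large. Myh2, a fast fibre myosin, measured 0.31, 0.09 and 0.40 TPM under isotype and 1.92, 2.0 and 2.22 TPM under anti-PD-1, and Myh1 0.79, 0.33 and 4.74 TPM under isotype and 8.05, 8.92 and 6.53 TPM under anti-PD-1. Csrp3 and Ankrd1, stress-responsive muscle proteins, had fold changes of 1.66 ± 0.91 (SE) and 1.52 ± 0.67 (SE). Csrp3 measured 1.33, 2.72 and 4.61 TPM under isotype and 6.38, 15.03 and 11.9 TPM under anti-PD-1, and Ankrd1 1.16, 0.15 and 2.38 TPM under isotype and 2.62, 7.59 and 5.42 TPM under anti-PD-1. Without isotype 1 or isotype 2 the muscle median was 0.63 or 0.73. The part of muscle in the other results was not tested.

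Adipocyte transcripts set isotype 3 and anti-PD-1 1 apart. The 12 listed genes, of which 11 were tested, summed to 985 TPM in isotype 3 and 1743 TPM in anti-PD-1 1, against 28.8 to 50.4 TPM in the other 4 libraries. Adipoq, the hormone adiponectin, measured 36.7 TPM in isotype 3, 71.3 TPM in anti-PD-1 1, 0.94 TPM in isotype 1 and was listed at 0 in the other 3 libraries. Leaving out isotype 3 and anti-PD-1 1 together, an alternative chosen after the data were seen, all 32 interferon gamma response genes were positive and all 32 were free of overlap, where 11.3% of all genes were free of overlap and higher. The median of the list was then 0.90, and that of all genes -0.07. Anti-PD-1 1 was also the treated library with the lowest level of this list (5.20), so leaving it out raises the count without overlap. Without anti-PD-1 1 alone, 25 of 32 were free of overlap (4.84% of all genes), and without isotype 3 alone 14 of 32 (8.17%), as they were without isotype 2 (9.09%). Without isotype 3, 25 of 26 muscle genes were free of overlap, and the muscle median was 2.32. No gene passed the adjusted test in these fits.

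**Figure D5:**
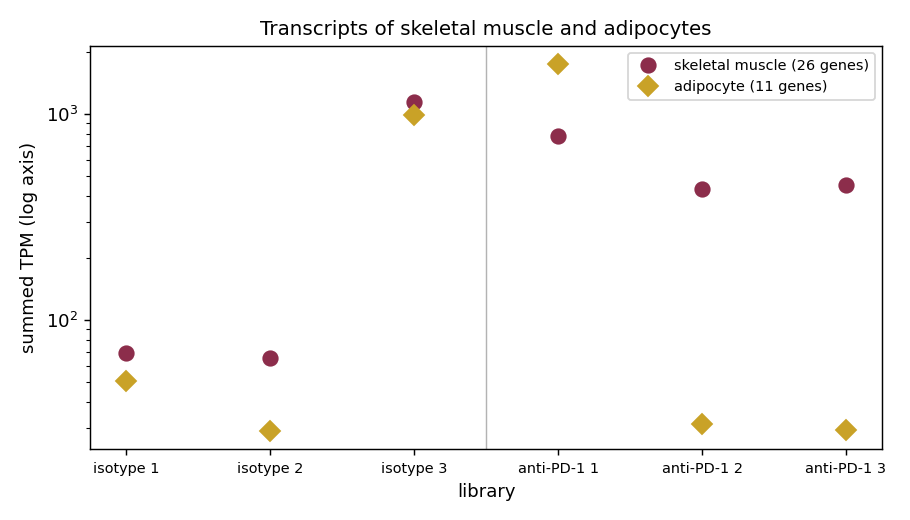
Summed TPM (log axis) of 28 skeletal muscle genes and 12 adipocyte genes in each of the 6 libraries. The legend gives the numbers of genes tested, 26 and 11. Adipocyte transcripts are high in isotype 3 and anti-PD-1 1, and muscle transcripts are low in isotype 1 and 2.

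The genes with the smallest p-values outside these groups were a mixed set. Rmrp, the RNA component of a mitochondrial RNA processing ribonuclease, was listed at 0 in all 3 isotype libraries and at 1.34, 1.91 and 2.14 TPM under anti-PD-1, with the smallest unadjusted limma p of the comparison, 0.000387. No fold is given against a group listed at 0. Atp6v0c, the membrane ring subunit of the vacuolar proton pump (chr17:24163866-24169702, minus strand), measured 73.1, 61.0 and 123 TPM under isotype and 209.8, 152 and 237 TPM under anti-PD-1, at 1.25 ± 0.31 (SE) on the log2 scale with an unadjusted limma p of 0.00135. A pseudogene copy, Atp6v0c-ps2, is also in the table, at 505, 494 and 666 TPM under isotype and 509.7, 482 and 420.1 TPM under anti-PD-1. The sum was 641 ± 129 TPM under isotype and 670.3 ± 44.0 TPM under anti-PD-1 (SD, n = 3 each), with overlap and an exact two-sided permutation p of 0.6. The division of reads between the copies is uncertain. Of the 18 pump genes 13 were positive, with a median of 0.05. Atp6v0c was the 1 member free of overlap (5.56%, where 2.7% of all genes were higher without overlap).

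Further genes with small p-values were low in abundance. Higd1b, a mitochondrial protein gene that marks pericytes (chr11:102835849-102838040, plus strand), measured 2.65, 3.77 and 3.82 TPM under isotype and 1.67, 0.60 and 0.34 TPM under anti-PD-1, a log2 fold change of -1.29 ± 0.37 (SE) with an unadjusted limma p of 0.00414. The 13 pericyte genes had a median of -0.03 (-0.36 without anti-PD-1 1 and 0.17 without anti-PD-1 2). Higd1b was their single member free of overlap, where 1.57% of all genes were lower without overlap. Npff, a neuropeptide precursor, measured 1.41, 1.34 and 1.59 TPM under isotype and 3.88, 2.51 and 2.88 TPM under anti-PD-1, and Slc16a11, a monocarboxylate transporter, 1.30, 1.79 and 0.76 TPM under isotype and 2.64, 2.74 and 3.19 TPM under anti-PD-1. Fbxl8, an F-box protein, measured 4.43, 3.97 and 6.50 TPM under isotype and 8.05, 6.81 and 7.71 TPM under anti-PD-1. These 3 were higher in every treated library than in every isotype library. Cd207, the langerin of Langerhans cells, measured 1.35, 0.69 and 1.02 TPM under isotype and 0.19, 0.28 and 0.31 TPM under anti-PD-1, and Moap1, a modulator of apoptosis, 1.93, 7.64 and 6.10 TPM under isotype and 0, 0 and 2.62 TPM under anti-PD-1. Cd207 lay near the limit of the filter and Moap1 was listed at 0 in 2 treated libraries.

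Nptxr and Tpsab1 were described by the rule that takes genes without overlap whose mean reached 5 TPM in the higher group alone. Both were below 5 TPM in every isotype library, so they, like Myh1, Csrp3 and Ankrd1, entered through the group in which they were high. Nptxr, a pentraxin receptor, measured 1.96, 2.17 and 1.05 TPM under isotype and 6.12, 2.71 and 6.21 TPM under anti-PD-1, and Tpsab1, a mast cell tryptase, 3.10, 2.69 and 4.08 TPM under isotype and 5.35, 18.1 and 5.10 TPM under anti-PD-1. Anti-PD-1 2 stood far above the other treated libraries for Tpsab1. The lowest fold changes were smaller in size. Xrcc6bp1, a mitochondrial metalloprotease gene, measured 7.05, 10.0 and 9.60 TPM under isotype and 5.30, 3.88 and 5.68 TPM under anti-PD-1 (-0.73 ± 0.21 (SE) on the log2 scale), and C1qtnf5, a secreted protein related to complement C1q, 35.6, 37.8 and 30.7 TPM under isotype and 21.0, 26.3 and 20.5 TPM under anti-PD-1 (-0.60 ± 0.22 (SE)). Mbip, Ung, Mrps14, Zfp239, Psmg2 and Srrd had fold changes between -0.47 and -0.37. Of these, Ung removes uracil from DNA, Mrps14 belongs to the mitochondrial ribosome and Psmg2 assists proteasome assembly.

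Proliferation and biosynthesis genes lay close to the all-gene median or below it. Of 30 cell division genes, 10 were positive (5 with median-of-ratios scaling), with a median of -0.06, which was 0.04 without anti-PD-1 2. Ccnb2, a mitotic cyclin, measured 93.1, 88.7 and 92.4 TPM under isotype and 70.5, 83.6 and 76.1 TPM under anti-PD-1 and was 1 of the 2 members free of overlap, both lower. Over all genes, 1.57% were lower without overlap. Of 30 cytosolic ribosomal protein genes, 3 were positive, with a median of -0.11, and of 26 respiratory chain genes 4 were positive, with a median of -0.07. Leaving out single libraries, these medians lay between -0.19 (without anti-PD-1 2) and -0.013 (without isotype 3) and between -0.16 (without isotype 2) and -0.0043 (without isotype 3). Cox7c, a subunit of cytochrome oxidase, measured 507, 463 and 641 TPM under isotype and 389, 450.1 and 407 TPM under anti-PD-1 and was 1 of 2 respiratory genes free of overlap. The ribosomal and respiratory lists turned to medians of 0.05 and 0.01 without the libraries that carried adipocyte transcripts. Of 23 genes of the p53 response 17 were positive with a median of 0.18, which was 0.01 without isotype 3 and 0.03 without anti-PD-1 1. Its members Cdkn1a, a cell cycle inhibitor, and Bbc3, which promotes apoptosis, had fold changes of 0.30 ± 0.17 (SE) and 0.50 ± 0.26 (SE), both with overlap. All 4 erythrocyte genes were negative, with a median of -0.58, which was -1.09 without anti-PD-1 1, -0.39 without isotype 1 and -0.22 without anti-PD-1 2. Hba-a2 was listed at 0 in 4 of the 6 libraries and has a near-identical copy, Hba-a1. Their sum was 217, 109 and 171 TPM under isotype and 261, 53.1 and 111 TPM under anti-PD-1, which overlapped.

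The same antibody was compared in UV2 tumors, which share no library with the parental comparison. No gene passed the test of a difference between the lines in its anti-PD-1 effect: 0 of 13592 passed an adjusted p under 0.05 (0%), 404 had an unadjusted limma p under 0.05, with 0.80 as the lowest adjusted value (1303 passed with array weights). The interferon gamma response median was 0.68 in parental and 0.43 in UV2 tumors, with 32 and 24 of 32 positive. The T cell receptor median was 0.18 in parental and 0.93 in UV2 tumors, and the MHC class II median 0.50 and 0.88. The type I interferon median was 0.02 and -0.68, that of sterol synthesis -0.01 and -1.20 and that of skeletal muscle 1.30 and 1.47. The UV2 effect minus the parental effect was -0.90 ± 0.80 (SE) log2 units for Gbp4 and 1.02 ± 0.83 (SE) for Cd3e, neither past the test. Medians of lists in the lines were not tested against each other.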

How the data were processed

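RNA was measured in bulk in 15 tumor libraries. TPM values per gene symbol were computed by the authors and deposited as 1 table of 23420 symbols; Bowtie2 and RSEM and the builds mm10 and GRCm38 are named per the submitters' processing notes, with no versions. Each library sums to about 1000000, so depth is unknown and counting intervals are not given. Of the columns, 0 were unused. The 13592 genes that reached 1 TPM in 3 or more libraries were analysed as log2(TPM + 1) with limma 3.58.1 in R 4.3.3 (trend and robust), all 5 groups in 1 fit (10 residual degrees of freedom), two-sided, with Benjamini-Hochberg adjustment and a threshold of 0.05. Fold changes on this scale understate those of low genes. The procedure was tested on simulated data with independent noise in each gene, which leaves out variation that genes share. Positions are from GENCODE M21 (GRCm38), which 93.9% of tested symbols matched.

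The 38 gene lists and the genes were chosen with earlier results of these data known, and lists are described by counts and medians with no test. Named are genes fixed with the lists, the 8 highest and 8 lowest fold changes without overlap at a mean of at least 5 TPM, the 10 smallest p-values and up to 3 members per list with the smallest p, with predicted or unnamed genes, mitochondrial transcripts and antigen receptor segments kept out of the rankings (147 genes, of which part are described). Chosen after their values were seen were Irf8, Gbp2, Gbp8, Gbp10, Tgtp1, Socs1, Ido1, Batf2, H2-T22, Pdia3, Myc and the copies Tgtp2 and Atp6v0c-ps2. Alternatives were another pseudocount, filters, scalings, groups in the fit, replicate block, array weights and leaving out libraries. One member of the interferon gamma response list is counted with the list but not reported here.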

Additional observations from a re-analysis of the deposited data

Results flagged for a closer look

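Rmrp and Xrcc6bp1 were picked out because the groups did not overlap in either line and the order was opposite. For Rmrp the UV2 libraries measured 1.22, 2.54 and 1.10 TPM under isotype and 0.60, 0.97 and 0.54 TPM under anti-PD-1, and the UV2 effect minus the parental effect was -2.06 ± 0.44 (SE) on the log2(TPM + 1) scale. Since the parental isotype libraries were listed at 0 for Rmrp, this value depends on the pseudocount and is no estimate of a fold. For Xrcc6bp1 the UV2 libraries measured 8.08, 7.46 and 6.93 TPM under isotype and 9.61, 8.48 and 8.28 TPM under anti-PD-1, with a difference between the effects of 0.94 ± 0.30 (SE). By limma the adjusted p of these differences was 0.8 for Rmrp and 0.8 for Xrcc6bp1. Over all genes tested, 580 were without overlap in parental tumors, and of these 18 had the opposite order without overlap in UV2 tumors and 67 the same order.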

How the results depend on the processing

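The count of genes called between the groups was 0 in every fit but that with limma array weights, which called 412 genes, 282 higher and 130 lower, 10 of them among the 32 interferon gamma response genes (31.2%, against 3.03% of all genes tested). The same weights called 1303 genes for the difference between the lines, against 0 in the other fits. These weights spanned 0.179 to 73.8, with 10.4 on isotype 1 and 73.8 on a triple therapy library outside the comparison, and the estimation gave a convergence warning. At an unadjusted p under 0.05 the other fits held 49 to 230 genes, against 83. A replicate block called 0 genes, with 84 at an unadjusted p under 0.05. Same-numbered libraries had correlations of deviations from their group means of -0.125, -0.098 and -0.541. With 3 libraries per group these values cannot decide whether the replicate numbers pair libraries.

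Leaving out each library in turn, the fold change ranged from -0.20 to 0.82 for Cxcl10, -0.0297 to 0.1336 for B2m, -0.13 to 0.72 for Cd3e, -0.0241 to 0.8134 for Cd8a and -0.28 to 0.52 for Pdcd1. With array weights it was -0.0036 for Cd3e, -0.0324 for Cd8a and -0.16 for Pdcd1, and with median-of-ratios scaling -0.0501 for B2m. Without isotype 3 and anti-PD-1 1, Isg15 was at 0.0805. The cause was not tested. Among list medians, 597 values over the alternatives stayed within the replicate spread of the main value and 11 moved beyond it. That spread was wide for some lists, and a change of sign was not counted as a move. The adipocyte median, with a spread of 2.54, ran from -1.31 without anti-PD-1 1 to 1.56 without isotype 3 and counted as unmoved.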
